A study of Mus musculus with 29 samples.

Results

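The subunits of the mitochondrial respiratory chain that are encoded in the nucleus were followed across 29 mouse heart libraries. They were the genes of the deposited count table whose symbol starts with Ndufa, Ndufb, Ndufc, Ndufs or Ndufv (Ndufaf assembly factors left out), with Uqcr, with Cox4 to Cox8 or with Atp5, together with Sdha to Sdhd, and whose mean was at least 1 CPM (counts scaled to 1000000 per library). Of 23420 genes, 82 met the rule: 37 in complex I, 4 in complex II, 8 in complex III, 16 in complex IV and 17 in complex V. Of the 85 symbols that matched, 3 fell outside it, Ndufs5 and Cox8c with no count and Cox7b2 with a mean of 0.034 CPM. The symbol alone also brought in Ndufa4, Ndufa4l2, Cox7a2l, Atp5s and Atp5sl, which are not classical subunits of the complex their name points to. It left out subunits with other symbols, among them Cyc1 of complex III and Usmg5 and 2010107E04Rik of complex V. The counts and sums of these complexes below do not hold them. All 82 passed the filter on low counts and were tested. The count table held no mitochondrially encoded gene, so nothing below bears on the subunits made inside the organelle.

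Polyadenylated RNA had been taken from the ventricular apex, although the tissue label reads whole heart. All mice were of C57BL/6J background and labelled 12 weeks old. They were wild type, lacked the kinase PKCδ in the heart after birth (postnatal cardiac ablation), carried a germline PKCε knockout, or combined both losses. Hearts were unstressed or had been under TAC (transverse aortic constriction, an operation that narrows the aorta and loads the left ventricle with pressure) for 4 weeks. There were 4 unstressed libraries of wild type, 3 of PKCδ, 3 of PKCε and 4 of combined mice, and 4, 3, 4 and 4 after TAC in that order. The driver of the cardiac deletion and the deleted parts of the 2 genes are not given here by any source that was used. The PKCε knockout is in every cell of the animal. The labels name no sham operation, so the TAC contrast includes the surgery. They tie no library to a named animal, so p-values rest on how much libraries of a group vary, and each n counts libraries.

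The respiratory chain passes electrons from NADH through complex I, or from succinate through complex II, to ubiquinone, then through complex III and cytochrome c to complex IV, where oxygen is reduced. Complexes I, III and IV pump protons across the inner membrane, and complex V, the ATP synthase, uses that gradient to make ATP. Heart muscle depends on this for most of its ATP, and several subunits have a heart and skeletal muscle isoform beside a broadly expressed isoform.

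Each library held between 10523709 and 17314739 counts in genes. The summed level of 12 cardiomyocyte markers lay between 98085 and 119639 CPM in all libraries. TAC and unstressed libraries overlapped in wild type and PKCε hearts. In PKCδ hearts the sums were higher after TAC without overlap, at 107382 to 114293 against 101382 to 105087 CPM. In combined hearts they were lower after TAC without overlap, at 98085 to 109659 against 111197 to 118202 CPM. The part of this in the member changes was not tested. Summed fibroblast markers stood at 897 to 1016 CPM in unstressed wild type and at 1803 to 3751 CPM after TAC. Summed over 5 atrial markers, wild type stood at 141.5 to 162.7 CPM unstressed and at 1529 to 2429 CPM after TAC. The same sums were 119.2 to 135.0 and 478.1 to 1428 CPM in PKCδ hearts. In PKCε hearts they were 93.2 to 102.9 and 1198 to 5278 CPM, and in combined hearts 56.6 to 100.2 and 1692 to 7157 CPM. What part these markers have in the member changes was not tested. The share of reads aligned to more than 1 place was 8.0% to 9.6% in unstressed and 10.98% to 14.2% in TAC libraries. The 45S precursor gene Rn45s took 9.9% to 14.1% of the counts in unstressed and 4.51% to 8.59% in TAC libraries, also without overlap. Leaving it out of the counts gave 35 members called after TAC in wild type, where 32 were called with it. No unstressed library was labelled female, against 1 wild-type, 2 PKCδ, 0 PKCε and 3 combined TAC libraries. Prkce, the knocked-out PKCε gene, stood at 46.9 to 52.9 CPM in unstressed wild type and at 6.59 to 9.19 CPM in unstressed PKCε and combined hearts. Prkcd was not lower in the PKCδ group (16.3 to 18.7 CPM, against 13.4 to 15.8 CPM in unstressed wild type), and which exons were deleted is not given, so its count checks nothing. In combined TAC replicate 2 Prkce went against that library's label, at 31.5 CPM where the other 3 combined TAC libraries had 8.21 to 10.97. Wild-type TAC replicate 2 also stood apart, with 24.0 CPM of Prkce against 33.3 to 42.9 in its group and 10.2 CPM of the skeletal myosin gene Myh2 against 0.07 to 0.28. Results that rest on these 2 libraries are given with and without them. Skeletal muscle signal was not confined to 1 library. Summed over 9 skeletal muscle markers, PKCε hearts stood at 20.7 to 34.1 CPM unstressed and at 9.69 to 24.1 CPM after TAC. Unstressed wild type stood at 4.1 to 5.5 CPM, and the groups without the PKCε knockout alone reached at most 16.3 CPM, in wild type after TAC. In bulk RNA, fewer cells of a type and less RNA per cell cannot be told apart.

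Taken per kilobase of transcript in unstressed wild type, the most abundant member was Cox6a2, the muscle isoform of complex IV subunit 6A, at a level of 3325 ± 592 CPM per kilobase (SD, n = 4). Next came Atp5b, the catalytic β subunit of the ATP synthase, at a level of 2231 ± 26.2 CPM per kilobase, then Cox8b, a muscle isoform of complex IV, at 1926 ± 170.1. Then came Atp5a1, the α subunit of the same enzyme, at 1745 ± 10.3, and Cox7a1, a muscle isoform of complex IV, at 1658 ± 177. Cox8b, Atp5a1 and Cox7a1 did not differ beyond their spread. All 82 members summed to 41209 to 44949 CPM in unstressed wild type.

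Summed over its subunits, complex II was lower after TAC in all 4 genotypes (the sums are given without a test). In wild type its 4 subunits summed to 3161, 2991, 3136 and 3175 CPM unstressed and to 2523, 2716, 2451 and 2634 CPM after TAC. Every TAC library was below every unstressed library, and the mean was 17.2% lower. It was 17.0% lower in PKCε hearts and 12.4% lower in combined hearts, again without overlap, while in PKCδ hearts the mean was 9.07% lower with overlapping libraries. Complex V was 9.95% lower in wild type with overlap, and 13.9% lower without overlap when TAC replicate 2 was left out. The sums of complexes I and III overlapped between TAC and unstressed hearts in all 4 genotypes. Without wild-type TAC replicate 2 both were lower without overlap in wild type, by 6.95% and 6.69%. Complex IV overlapped in wild type, PKCδ and PKCε hearts and was 10.8% higher without overlap in combined hearts.

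**Figure D1:**
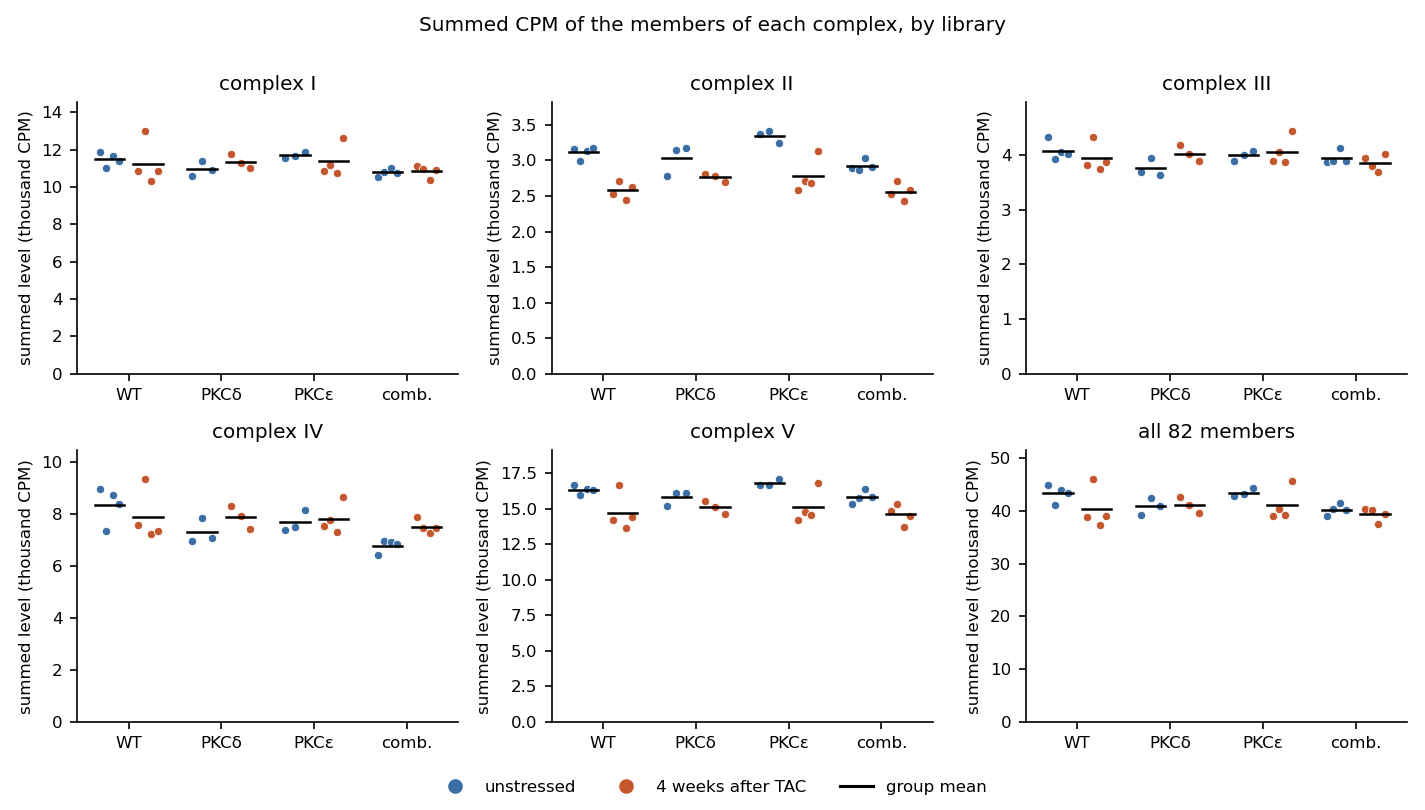
Summed CPM of the subunits of complexes I to V (vertical axes) in each library of the 8 groups, with the group mean as a line. Complex II sits lower after TAC in wild type, and wild-type TAC replicate 2 stands high in complex IV, at 9332 CPM against 7219 to 7565 in the other 3.

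Pressure overload changed the subunits in both directions within the same complex. In wild type 32 of 82 members were called at an adjusted p below 0.05, 12 higher and 20 lower after TAC. Of all 13765 genes tested, 35.7% were called, 17.8% higher and 17.9% lower, so the share of members called was near that of all genes. The median log2 fold change of the members was -0.06, against -0.00 over all genes. The 20 lower members were 5 of complex I, 2 of complex II, 2 of complex III, 3 of complex IV and 8 of the 17 of complex V. Without wild-type TAC replicate 2 the split was 10 higher and 27 lower. With offsets for transcript length and GC content it was 5 higher and 37 lower. The shares of all genes given here and below are from the fit with all libraries and no offsets. Splits from other fits therefore have no like share beside them.

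The other genotypes gave 19 higher and 11 lower members in PKCδ hearts (26.9% of all genes called, 12.9% higher and 14.0% lower), and 17 higher and 19 lower in PKCε hearts (28.9% of all genes, 14.5% and 14.3%). Combined hearts had 28 higher and 14 lower (43.8% of all genes, 22.0% and 21.8%). Leaving out PKCε unstressed replicate 1 cut the PKCε count from 36 to 20. With the length and GC offsets the splits became 10 higher and 22 lower in PKCδ and 4 and 33 in PKCε hearts. In combined hearts they became 21 and 20. The shares of all genes in this paragraph are without these offsets. Averaged over the 4 genotypes, TAC raised 30 members and lowered 26, with 56.9% of all genes called (28.1% and 28.9%), and with the offsets these were 17 and 41.

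Called higher in all 4 genotypes were 8 members, Ndufa13, Ndufab1, Ndufb6, Ndufc1, Uqcr10, Cox5a, Cox6a1 and Atp5j. Members called lower in all 4 included Ndufa5, Sdha, Cox5b and Atp5b. Over all genes tested, 4.57% were called higher and 4.34% lower in all 4 genotypes. With the length and GC offsets only Cox5a and Ndufc1 of the 8 stayed called in all 4 genotypes. Ndufa5, Sdha and Cox5b stayed called lower in all 4, and Atp5b did not. Never called in any genotype were 22 members. The 4 comparisons use separate libraries but a single estimate of the spread.

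**Figure D2:**
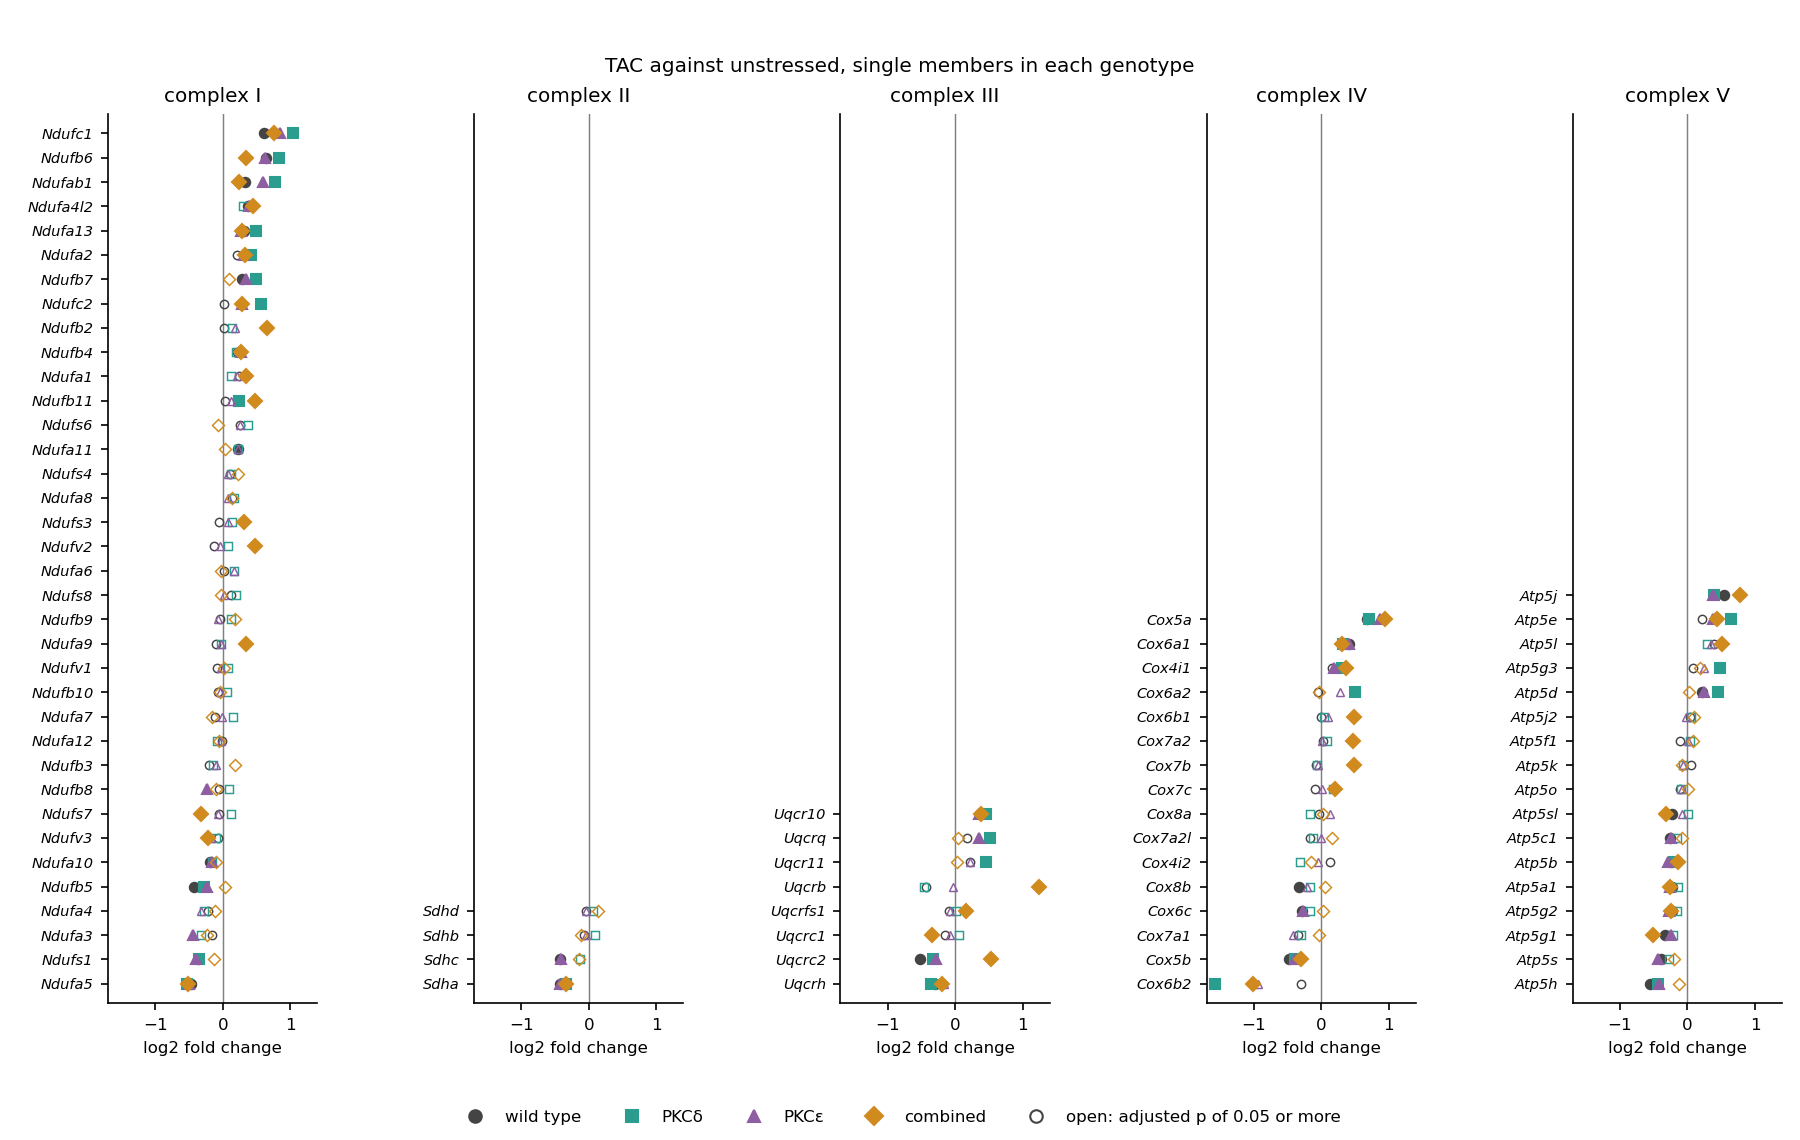
Log2 fold change after TAC (horizontal axis) of the members shown in the 4 genotypes, ordered by complex, with filled points for calls at an adjusted p below 0.05. Ndufc1, Ndufb6 and Cox5a lie to the right and Sdha, Cox5b and Ndufa5 to the left in every genotype, while Uqcrc2 lies to the right in combined hearts and to the left in the others.

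In complex I, 7 members rose after TAC in wild type, all of them accessory subunits or paralogs (Ndufa11, Ndufa13, Ndufa4l2, Ndufab1, Ndufb6, Ndufb7 and Ndufc1), and those that fell included Ndufa5, Ndufa10, Ndufb5 and Ndufs1. Ndufb6, an accessory subunit of the membrane arm (GRCm38 chr4:40270591-40279421, minus strand), stood at 72.3, 72.0, 64.7 and 62.9 CPM in unstressed wild type and at 104, 116, 109 and 96.1 CPM after TAC. All TAC libraries were above all unstressed libraries, and the log2 fold change was 0.64 ± 0.09 (SE, edgeR's quasi-likelihood test, adjusted p = 4.3e-06). In GENCODE vM21, 39.0% of its exonic bases are shared with Smim27 on the opposite strand, and the libraries carry no strand. Ndufc1, an accessory subunit of the membrane arm, stood at 48.2, 42.7, 35.5 and 39.2 CPM unstressed and at 61.9, 69.5, 62.2 and 60.4 CPM after TAC in wild type (log2 fold change 0.61 ± 0.12, adjusted p = 0.0003). Its log2 fold changes in PKCδ, PKCε and combined hearts were 1.04, 0.84 and 0.76, without overlap between TAC and unstressed libraries in any genotype.

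Ndufs1, the largest of the core subunits and a carrier of iron-sulfur clusters, stood at 355, 342, 394 and 379.6 CPM unstressed and at 268, 304, 266 and 300.4 CPM after TAC in wild type, a log2 fold change of -0.37 ± 0.07 (adjusted p = 0.00022). All TAC libraries were below all unstressed libraries. The core subunits Ndufv2 and Ndufs8 were not called, with log2 fold changes of -0.12 (adjusted p = 0.37) and 0.13 (adjusted p = 0.25). Ndufa5, an accessory subunit of the matrix arm, fell from 350.2, 311, 394 and 365 CPM to 239, 326, 219 and 243 CPM in wild type (log2 fold change -0.47 ± 0.10, adjusted p = 0.00063). The high TAC value is that of replicate 2, the only TAC library that reached the unstressed range. In PKCδ, PKCε and combined hearts its log2 fold changes were -0.52, -0.50 and -0.51 without overlap.

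Complex II links the citric acid cycle to the chain and has only nuclear-encoded subunits. Sdha, its flavoprotein, stood at 1449, 1356, 1474 and 1456 CPM in unstressed wild type and at 1043, 1146, 994 and 1096 CPM after TAC (log2 fold change -0.42 ± 0.08, adjusted p = 9.2e-05). It fell in PKCδ, PKCε and combined hearts by 20.6%, 25.7% and 21.1%, in each case without overlap. Sdhc, a membrane anchor with part of the heme and ubiquinone sites, stood at 472, 468, 454 and 476 CPM unstressed and at 333, 393, 319.9 and 348 CPM after TAC in wild type (log2 fold change -0.42 ± 0.07, adjusted p = 2.9e-05). It also fell in PKCε hearts (-0.41 ± 0.07, adjusted p = 0.00014) and was not called in PKCδ (-0.14, adjusted p = 0.22) or combined hearts (-0.15, adjusted p = 0.088). The iron-sulfur subunit Sdhb and the other anchor Sdhd were not called in any genotype. Averaged over genotypes their log2 fold changes were -0.04 ± 0.03 and 0.03 ± 0.04. The transcripts of Sdha and Sdhc are 2900 and 3171 bases long, and those of Sdhb and Sdhd 1142 and 1231. The part of length in these changes was not tested beyond the length and GC offsets.

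Complex III members differed in direction. Uqcr10, a small subunit near cytochrome c1, rose in wild type from 420.1, 367, 371 and 382 CPM to 443, 627, 474 and 435 CPM (log2 fold change 0.36 ± 0.09, adjusted p = 0.0017). Replicate 2 was again the highest TAC library, and all 4 were above the unstressed libraries. Uqcrh, the acidic hinge protein of the complex, fell from 506, 515, 527 and 531 CPM to 412, 454, 401 and 417 CPM (-0.30 ± 0.07, adjusted p = 0.0017). Uqcrc2, a core subunit on the matrix side, was the only member called in both directions: its log2 fold change was -0.52 ± 0.10 in wild type (adjusted p = 0.00016) and 0.53 ± 0.10 in combined hearts (adjusted p = 6.8e-05). It was also called lower in PKCδ (-0.33, adjusted p = 0.033) and PKCε hearts (-0.28, adjusted p = 0.048). Both of those calls were lost when single libraries were left out, with adjusted p up to 0.15 without PKCδ unstressed replicate 3 and up to 0.19 without PKCε unstressed replicate 1.

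In complex IV the subunits Cox5a and Cox5b, which are not an isoform pair, moved in opposite directions. Cox5a, which sits on the matrix side of the enzyme, stood at 148, 119, 122 and 123 CPM in unstressed wild type and at 195, 246, 201 and 174 CPM after TAC, a log2 fold change of 0.67 ± 0.12 (adjusted p = 0.00014). Its log2 fold changes were 0.70, 0.87 and 0.94 in PKCδ, PKCε and combined hearts. In every genotype all TAC libraries were above all unstressed libraries. In GENCODE vM21, 41.7% of its exonic bases are shared with the antisense gene Gm26631. Cox5b, the zinc-binding subunit, stood at 791, 668, 811 and 781 CPM unstressed and at 541, 617, 502 and 533 CPM after TAC (-0.48 ± 0.07, adjusted p = 1.1e-05), and it fell without overlap in the other genotypes by 0.39, 0.39 and 0.31 on the log2 scale. The difference between the 2 genes was not tested as such. Cox6a1, the broadly expressed isoform of subunit 6A, rose from 92.0, 88.0, 83.6 and 87.7 CPM to 123, 121, 114 and 108 CPM (0.41 ± 0.07, adjusted p = 3.7e-05). With the length and GC offsets the Cox6a1 call was lost in wild type (adjusted p = 0.33).

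In complex V both major subunits of the catalytic head fell in wild type, while of the peripheral stalk Atp5h fell and Atp5j rose. Atp5b stood at 4304, 4219, 4247 and 4328 CPM in unstressed wild type and at 3548, 3770.3, 3460.5 and 3608 CPM after TAC (log2 fold change -0.25 ± 0.05, adjusted p = 0.0007). Its call was lost in combined hearts (main adjusted p = 0.039) without combined TAC replicate 3 (0.13) and in PKCδ hearts (main 0.019) without PKCδ unstressed replicate 3 (0.12), among others. Atp5a1, the α subunit of the head, fell by 0.23 ± 0.06 on the log2 scale in wild type (adjusted p = 0.004). Atp5h, subunit d of the peripheral stalk, stood at 607, 582, 667 and 664 CPM unstressed and at 402, 492, 383 and 444 CPM after TAC, the smallest adjusted p of all members in wild type (-0.55 ± 0.07, adjusted p = 2.4e-06). Atp5j, coupling factor 6 of the same stalk, rose from 158, 155, 161 and 152 CPM to 203, 288, 216 and 207 CPM (0.54 ± 0.10, adjusted p = 0.00014). The libraries of the groups did not overlap for any of these 4 genes in wild type.

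The members have short transcripts, with a median length of 786 bases, and the sign of the TAC change varied with length across all genes. Among genes with transcripts of at most 600 bases, the 24 members had a median log2 fold change of 0.02 in wild type, against 0.25 for the 209 other genes. Between 600 and 1200 bases the medians were -0.01 for 35 members and 0.12 for 1181 others. Over 2400 bases all 5 members were called lower, with a median of -0.37 against -0.05 for 8323 others. Members therefore lay below other genes of like length in all 4 bands in wild type. The same held in PKCε hearts, with medians from 0.14 against 0.25 in the shortest band to -0.39 against -0.04 in the longest. In PKCδ hearts the 2 medians were 0.14 and 0.16 up to 600 bases and 0.09 and 0.09 up to 1200, and in combined hearts members lay above the others between 600 and 2400 bases. The band over 2400 bases holds only 5 members. Transcript length, the share of reads aligned to more than 1 place and TAC moved together across these libraries, and their part in the member changes was not tested beyond the offsets.

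**Figure D3:**
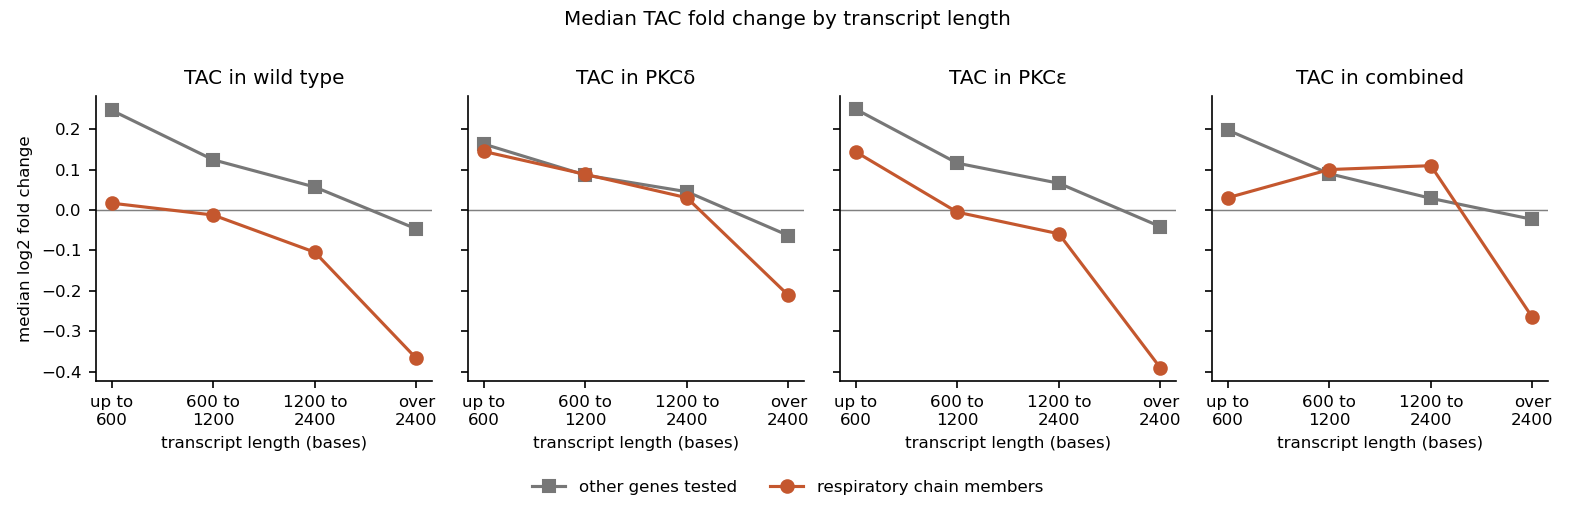
Median log2 fold change after TAC (vertical axis) in 4 bands of transcript length in bases (horizontal axis), for members and for all other tested genes, in the 4 genotypes. In wild type and PKCε hearts the members lie below the other genes in each band. The wild-type medians run from 0.02 against 0.25 in the shortest to -0.37 against -0.05 in the longest.

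Isoform pairs were compared as a ratio within each library, which does not depend on library size. The test was an exact two-sided permutation test of the TAC difference averaged over the 4 genotypes, with labels permuted within genotype (3430000 arrangements) and p adjusted over 8 pairs. The ratio of Cox7a2, the broadly expressed isoform of subunit 7A, to Cox7a1, the heart and muscle isoform, rose by 0.42 on the log2 scale (exact permutation, adjusted p = 7.77e-07, from the smallest p that the permutations can give). It went from 0.443 ± 0.040 (SD, n = 4) to 0.570 ± 0.024 (SD, n = 4) in wild type, and the difference was 0.37 to 0.50 on the log2 scale in the 4 genotypes. Cox7a1 itself stood at 663, 556, 667 and 721 CPM in unstressed wild type and at 453, 686, 422 and 481 CPM after TAC, where replicate 2 alone overlapped. Its fold change averaged over genotypes was -0.28 ± 0.08 (edgeR, adjusted p = 0.0046), and that of Cox7a2 was 0.15 ± 0.08 (adjusted p = 0.1).

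Atp5g1, Atp5g2 and Atp5g3 encode the same mature subunit c of the ATP synthase ring behind different import sequences. The ratio of Atp5g1 to Atp5g3 fell by 0.58 and that of Atp5g2 to Atp5g3 by 0.48 on the log2 scale, both with the smallest p that the permutations can give (exact permutation, adjusted p = 7.77e-07). In wild type Atp5g1 to Atp5g3 went from 2.15 ± 0.23 to 1.59 ± 0.13 (SD, n = 4 and 4). Atp5g1 fell in wild type from 1444, 1393, 1458 and 1443 CPM to 1091, 1334, 992 and 1125 CPM (-0.34 ± 0.07, adjusted p = 0.00043), whereas Atp5g3 had 791, 635, 665 and 608 CPM unstressed and 739, 810.5, 660.0 and 645 CPM after TAC (0.08, adjusted p = 0.61). The TAC libraries of Atp5g1 lay below the unstressed ones and those of Atp5g3 overlapped. The transcripts of Atp5g1, Atp5g2 and Atp5g3 are 4660, 441 and 714 bases long, and the part of length in these ratios was not tested.

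The ratio of Ndufa4l2, a paralog known to be induced by low oxygen, to Ndufa4 rose by 0.62 on the log2 scale (exact permutation, adjusted p = 1.22e-05), from 0.036 to 0.055 in wild type. Cox4i2 to Cox4i1, the second of which is the main isoform in the heart, fell by 0.35 (exact permutation, adjusted p = 3.46e-04), though by only 0.04 in wild type. Averaged over genotypes, Cox4i1 itself rose by 0.25 ± 0.03 (edgeR, adjusted p = 1.4e-07). Cox4i2 was not called (-0.09 ± 0.07, adjusted p = 0.25). Cox6b2, near 1 CPM, to Cox6b1 fell by 1.19 (exact permutation, adjusted p = 3.83e-05). Cox8a to Cox8b rose by 0.16 (exact permutation, adjusted p = 0.0267), with differences of 0.33 in wild type, 0.0064 in PKCδ, 0.34 in PKCε and -0.025 in combined hearts. This call was lost without PKCδ unstressed replicate 2 (0.068) or combined TAC replicate 3 (0.054). Cox6a1 to Cox6a2 rose by 0.18 (exact permutation, adjusted p = 0.04) with a negative difference in PKCδ hearts, -0.20, and lost its call in 15 of the alternatives.

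**Figure D4:**
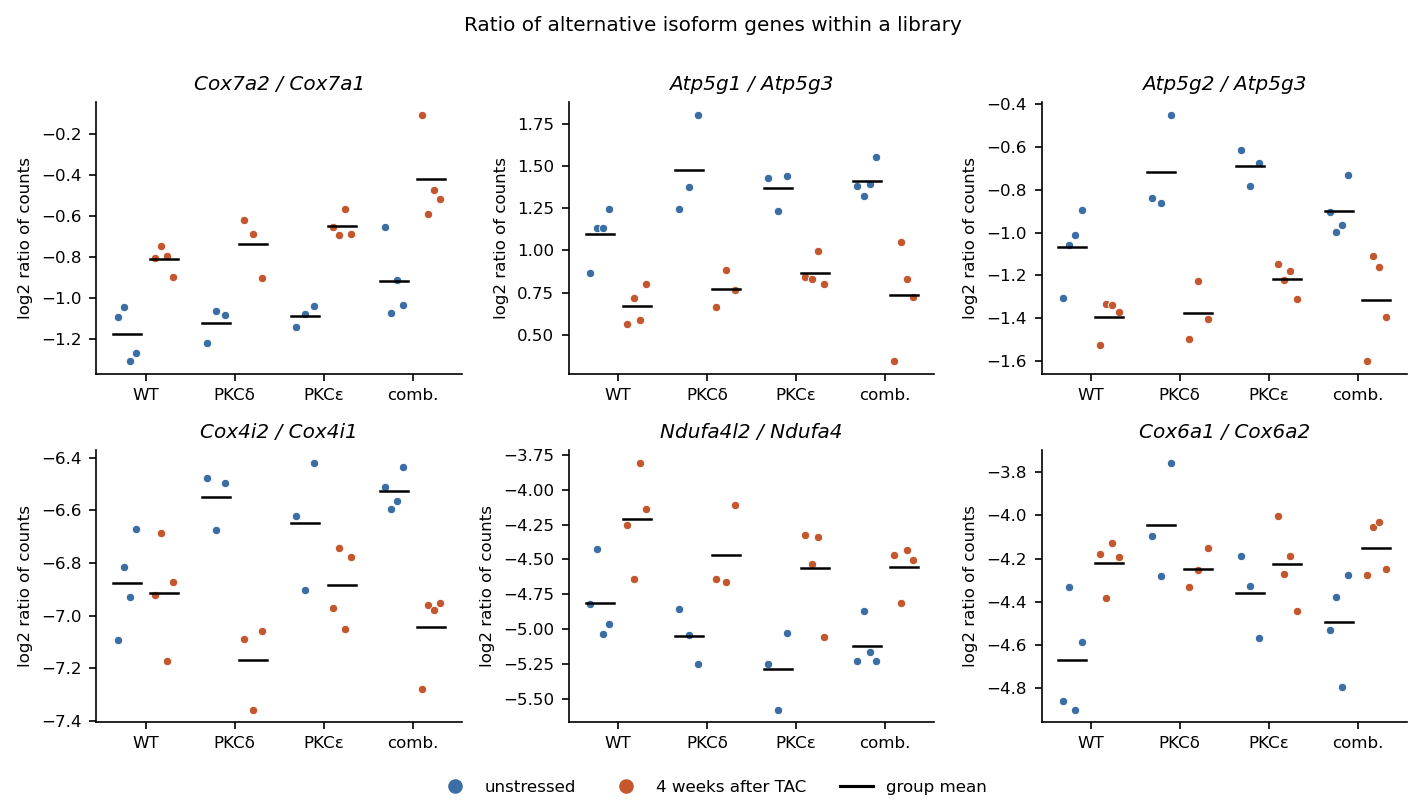
Ratio of counts of 6 isoform pairs (vertical axes, log scale) in each library of the 8 groups. Cox7a2 to Cox7a1 is higher and Atp5g1 to Atp5g3 lower after TAC on average in each genotype.

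The promoters of both pairs are shown because the isoforms of each pair shifted against each other. They are RefSeq sequences for GRCm38.p6, the 250 bases before the annotated start, from 5′ to 3′ on the gene's strand: Cox7a1 at chr7:30183921-30184170 (plus), Cox7a2 at chr9:79759854-79760103 (minus), Atp5g1 at chr11:96075632-96075881 (minus) and Atp5g3 at chr2:73911327-73911576 (minus). Capitals mark the single motif match within these bases, an ERR site in Atp5g3 read on the opposite strand. Atp5g3 also held an NRF1 match in the longer search given below, which does not lie fully within the bases shown.
Cox7a1: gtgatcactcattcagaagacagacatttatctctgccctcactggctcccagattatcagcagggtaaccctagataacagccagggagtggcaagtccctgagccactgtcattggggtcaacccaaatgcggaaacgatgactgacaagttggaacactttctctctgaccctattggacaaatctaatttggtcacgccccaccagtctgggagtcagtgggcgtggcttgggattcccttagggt
Cox7a2: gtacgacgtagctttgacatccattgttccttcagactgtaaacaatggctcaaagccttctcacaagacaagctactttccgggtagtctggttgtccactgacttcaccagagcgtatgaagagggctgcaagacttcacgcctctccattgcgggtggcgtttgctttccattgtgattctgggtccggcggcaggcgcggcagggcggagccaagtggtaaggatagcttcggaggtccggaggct
Atp5g1: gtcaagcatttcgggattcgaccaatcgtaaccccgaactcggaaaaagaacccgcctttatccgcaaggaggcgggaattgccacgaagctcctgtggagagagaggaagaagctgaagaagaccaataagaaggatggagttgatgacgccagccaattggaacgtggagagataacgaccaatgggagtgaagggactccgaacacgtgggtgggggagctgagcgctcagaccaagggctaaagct
Atp5g3: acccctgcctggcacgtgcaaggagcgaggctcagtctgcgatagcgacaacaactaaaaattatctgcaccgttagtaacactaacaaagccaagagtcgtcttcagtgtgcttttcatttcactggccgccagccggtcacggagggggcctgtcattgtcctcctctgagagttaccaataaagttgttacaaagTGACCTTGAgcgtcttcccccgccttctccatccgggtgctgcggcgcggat
Motifs were searched on both strands from 250 bases before to 50 after the start, in 68 of the 82 members and 27025 genes with a promoter in the table. The NRF1 consensus was found in 23.5% of the members and 5.19% of all genes, and its core GCATGCGC in 14.7% and 3.05%. GABP/ETS (CCGGAAG) was found in 23.5% and 9.93%, YY1 (AANATGGCG) in 16.2% and 2.76%, and CRE (TGACGTCA) in 5.88% and 2.03%. The ERR site TCAAGGTCA was found in 2.94% and 0.466%, and AAGGTCA, which lies within it, in 10.3% and 5.38%. Of the 8 members higher in all 4 genotypes, 3 held GABP/ETS (Ndufb6, Cox6a1, Atp5j), 2 held YY1 (Ndufc1, Atp5j), 1 held NRF1 (Cox6a1) and none held the ERR or CRE letters. Of the members named above as lower in all 4, Ndufa5 and Sdha held NRF1 and Atp5b held YY1. A match describes the letters only.

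In unstressed hearts, PKCδ ablation lowered 8 members and raised none: Ndufc2, Ndufab1, Ndufc1, Ndufa7, Uqcrq, Cox6a2, Atp5e and Atp5g3. Of all genes, 5.37% were called, 2.64% higher and 2.73% lower. Ndufc2, a membrane arm subunit of complex I, stood at 96.7, 68.0, 86.9 and 78.4 CPM in wild type and at 48.3, 60.8 and 56.2 CPM in PKCδ hearts, which did not overlap. The count was 1 without PKCδ unstressed replicate 1 or 3, 2 without wild-type unstressed replicate 1, and 13 without PKCδ unstressed replicate 2. The knockout of PKCε gave 1 call, Ndufc1 lower, with 3.0% of all genes called (1.53% higher and 1.47% lower). Ndufc1 stood at 24.4, 28.8 and 32.0 CPM against 48.2, 42.7, 35.5 and 39.2 CPM in wild type, without overlap. Leaving out single libraries gave 0 to 3 calls there.

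The combined ablation lowered many more members in unstressed hearts. Of the 82, 27 were lower than in wild type and 1, Ndufa11, was higher, while 29.2% of all genes were called, 15.3% higher and 13.9% lower. The lower members were 11 of complex I, 1 of complex II, 3 of complex III, 9 of complex IV and 3 of complex V. The median log2 fold change was -0.10 over the 82 members and -0.26 over the 16 of complex IV, against -0.00 over all genes. The summed level of complex IV was 18.8% lower, at 6406, 6960, 6932 and 6856 CPM against 8958, 7338, 8741 and 8403 CPM, without overlap. Without wild-type unstressed replicate 1 the number of calls fell from 28 to 17.

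Uqcrc2 had the largest difference among the calls that held without any single library. It stood at 235, 295, 253 and 280.3 CPM in unstressed combined hearts against 419.5, 386, 457 and 465 CPM in wild type (log2 fold change -0.70 ± 0.10, adjusted p = 8e-06). In GENCODE vM21, 26.6% of its exonic bases (chr7:120635176-120659524, plus strand) are shared with Pdzd9 on the opposite strand. Ndufb11, an X-linked accessory subunit of complex I, stood at 157, 171, 178 and 172 CPM against 268, 245, 231 and 219.7 CPM (-0.51 ± 0.07, adjusted p = 4.2e-06). No library of either gene overlapped between the genotypes. Cox6b1, a complex IV subunit on the intermembrane side at the interface of its dimer, stood at 375, 395, 395 and 426 CPM against 523, 471, 534 and 543 CPM (-0.38 ± 0.06, adjusted p = 2.5e-05). Ndufb2, another accessory subunit of complex I, stood at 37.6, 44.2, 36.3 and 41.8 CPM against 56.0, 56.7, 56.9 and 60.7 CPM (-0.53 ± 0.08, adjusted p = 2e-05). For both, all combined libraries lay below all wild-type libraries.

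The muscle isoform Cox7a1 was also lower, at 331, 494, 406 and 500.2 CPM (-0.59 ± 0.15, adjusted p = 0.0053), as were Cox4i1 (-0.29 ± 0.06, adjusted p = 0.00086), Cox7c (-0.38 ± 0.08, adjusted p = 0.00085), and the core subunits Ndufs3 (-0.33 ± 0.06, adjusted p = 0.00012) and Ndufv2 (-0.55 ± 0.10, adjusted p = 0.0002). Of 6 endothelial markers 5 were lower in the same comparison, with a summed level of 907 to 1036 CPM against 1221 to 1371. Of 6 smooth muscle and pericyte markers 4 were lower. Summed macrophage markers were higher without overlap, at 343.3 to 363.7 CPM against 265.9 to 303.5 CPM. The 12 cardiomyocyte markers had 2 higher and 1 lower, with sums of 111197 to 118202 CPM against 103498 to 117190 CPM. The part of these cells in the member differences was not tested.

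The promoters of Cox6b1 (chr7:30626115-30626364, minus strand) and Ndufb11 (chrX:20617620-20617869, minus strand) are shown as those of 2 members with a clear fall in unstressed combined hearts. They follow the same conventions, and capitals mark a GABP/ETS match on the opposite strand in Cox6b1 and a YY1 match in Ndufb11.
Cox6b1: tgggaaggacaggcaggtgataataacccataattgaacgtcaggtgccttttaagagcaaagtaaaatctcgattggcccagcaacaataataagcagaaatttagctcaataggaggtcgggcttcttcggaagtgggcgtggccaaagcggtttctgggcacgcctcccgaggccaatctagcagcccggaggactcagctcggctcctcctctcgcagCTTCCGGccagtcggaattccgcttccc
Ndufb11: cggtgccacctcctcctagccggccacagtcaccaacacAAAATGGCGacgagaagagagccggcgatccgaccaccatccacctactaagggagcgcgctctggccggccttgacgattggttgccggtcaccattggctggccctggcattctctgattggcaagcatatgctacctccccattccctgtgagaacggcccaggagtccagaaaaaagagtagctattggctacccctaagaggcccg

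After TAC, PKCδ hearts had 0 of 82 members called against wild type by edgeR (0.0% of all genes) and 3 at an unadjusted p under 0.05, and PKCε hearts had 0 (0.0436% of all genes, 0.0218% higher and 0.0218% lower) and 8. DESeq2 also called 0 in both. The shares of all genes here and below are at the adjusted threshold, so counts at an unadjusted p have no like share beside them. Combined hearts had 1 member called, Uqcrc2 higher (0.35 ± 0.10, adjusted p = 0.029), with 6.76% of all genes called, 4.22% higher and 2.54% lower. It stood at 402, 476, 317 and 345 CPM against 273, 291, 293 and 347 CPM in wild type, and the libraries overlapped. That call was lost without combined TAC replicate 2 (adjusted p = 0.11) or without wild-type TAC replicate 2 (0.075).

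The TAC change itself differed between combined and wild-type hearts in 14 members, each with the more positive change in combined hearts. Of all genes 25.1% were called, 12.6% more positive and 12.5% more negative, and none of the 82 members was called more negative. The count was 21 without wild-type TAC replicate 2 and 12 without combined TAC replicate 2, all more positive, and 15 more positive and 2 more negative without combined TAC replicate 4. The length and GC offsets gave 20 more positive and 2 more negative, only the groups compared gave 12 and 1, and libraries labelled male alone gave 3, all more positive. The 14 were Ndufa9, Ndufb2, Ndufb5, Ndufb11, Ndufs3, Ndufv2, Sdhc, Uqcrb, Uqcrc2, Uqcrfs1, Cox6b1, Cox7a2l, Cox7b and Atp5h. The interaction uses the same unstressed libraries as the comparison of unstressed hearts, so the results of both are not separate evidence.

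For Uqcrc2 the interaction was 1.05 ± 0.14 (adjusted p = 1.1e-05): its level went from 235 to 295 CPM unstressed to 317 to 476 CPM after TAC in combined hearts, while it fell in wild type. Cox6b1 went from 375 to 426 CPM to 582, 583, 543 and 522 CPM in combined hearts (log2 fold change 0.49 ± 0.06) and stayed at 498, 547, 508 and 519 CPM after TAC in wild type (0.00 ± 0.06), an interaction of 0.49 ± 0.08 (adjusted p = 0.00015). Ndufb2 rose to 62.0, 67.6, 62.1 and 59.4 CPM in combined hearts, with an interaction of 0.63 ± 0.11 (adjusted p = 0.00021). After TAC the combined libraries of Cox6b1 and Ndufb2 overlapped with those of wild type. Atp5h, which fell in wild type, was at 500.0, 541, 435 and 446 CPM after TAC and at 500.5, 533, 540.0 and 527 CPM before it in combined hearts (interaction 0.42 ± 0.11, adjusted p = 0.0044). The interaction for Uqcrb, a small complex III subunit, was 1.68 ± 0.41 (adjusted p = 0.005), with combined TAC libraries spread from 23.2 to 75.8 CPM. With PKCδ, 1 member had a different TAC change, Ndufc2 (0.54, adjusted p = 0.045), with 1.27% of all genes called (0.458% higher and 0.814% lower), and it was lost with the sex label, the Y-linked score, male labels only, the replicate block and most single libraries left out. With PKCε, 0 members had a different TAC change by edgeR or DESeq2 (0.0363% of all genes, 0.00726% more positive and 0.0291% more negative), and 1 did at an unadjusted p under 0.05.

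**Figure D5:**
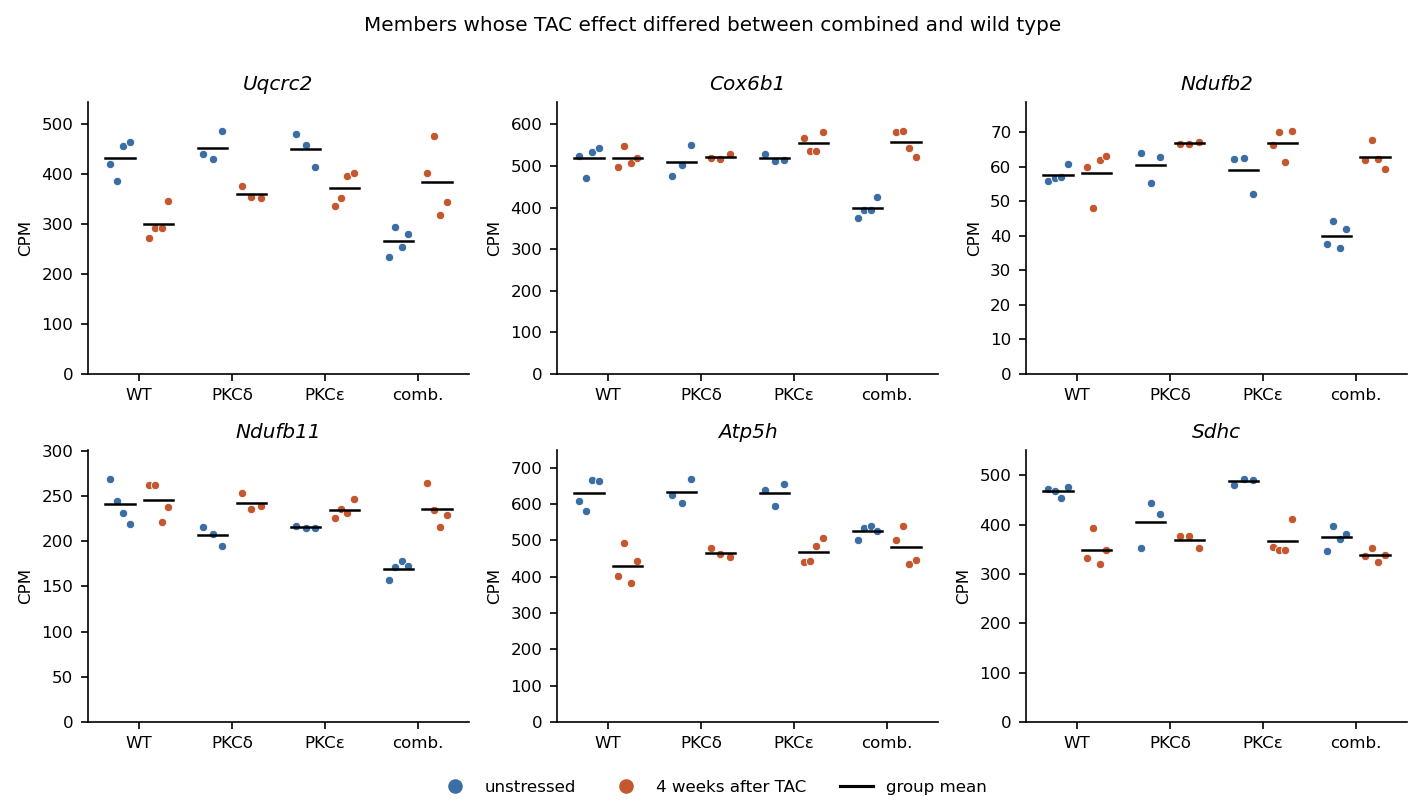
CPM of Uqcrc2, Cox6b1, Ndufb2, Ndufb11, Atp5h and Sdhc (vertical axes) in each library of the 8 groups. Unstressed combined libraries are the lowest of the unstressed groups for Uqcrc2, Cox6b1, Ndufb2 and Ndufb11, and the combined TAC libraries overlap with those of the other TAC groups for all 6 genes.

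Other genes of the pathway were read from lists chosen for function. Of 18 citric acid cycle and pyruvate dehydrogenase genes, 9 fell and none rose after TAC in wild type, with a median log2 fold change of -0.23, where 17.8% of all genes were called higher and 17.9% lower. Cs, citrate synthase, fell by 0.43 ± 0.06 on the log2 scale (adjusted p = 8.7e-06). In unstressed combined hearts 9 of the 18 were lower than in wild type and 1 was higher, beside 13.9% and 15.3% of all genes, and 7 had a more positive TAC change there, beside 12.6% of all genes. Of 10 genes of ATP synthase regulation and ATP export, with Usmg5 and 2010107E04Rik of complex V, 6 were lower and 1 higher in unstressed combined hearts. In 6 the TAC change was more positive, among them Vdac2, an outer membrane channel (interaction 0.69 ± 0.10, adjusted p = 1.6e-05). Of 17 genes for ubiquinone synthesis and electron carriers, with Cyc1 of complex III among them, 4 fell after TAC in wild type and none rose. Of 40 assembly factors, 6 rose and 5 fell. The fallen carrier and synthesis genes and both assembly factor counts are near the shares of all genes. Of 80 cytosolic ribosomal protein genes, which are also short, 45 rose and 3 fell, and of 76 mitochondrial ribosomal protein genes 25 rose and 6 fell.

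Among regulators of these genes, Ppargc1a, a coactivator of mitochondrial gene programmes, stood at 102, 92.1, 123 and 107 CPM in unstressed wild type and at 57.9, 58.3, 64.0 and 73.5 CPM after TAC (log2 fold change -0.74 ± 0.14, adjusted p = 0.00016). It was also lower in unstressed combined hearts, at 57.6, 69.7, 82.5 and 71.7 CPM (-0.59 ± 0.14, adjusted p = 0.0021), and the libraries did not overlap in either comparison. Its TAC change differed between combined and wild-type hearts by 0.82 ± 0.19 (adjusted p = 0.003). Gabpa, a subunit of the ETS factor GABP, fell after TAC by 0.43 ± 0.08 in wild type (adjusted p = 0.000225). Part of the exons of Atp5j, which rose, are shared with Gabpa on the opposite strand. Esrrg, a nuclear receptor for the ERR site, fell by 0.41 ± 0.04 averaged over genotypes (adjusted p = 1.3e-10), and Tfam, the mitochondrial DNA packaging factor, rose by 0.14 ± 0.04 (adjusted p = 0.0089). Esrra and Nrf1 were not called in that average, with log2 fold changes of 0.01 ± 0.06 and -0.04 ± 0.05.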

How the data were processed

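The authors deposited raw read counts per gene symbol, 1 file per library and a table of the whole series, which agreed in all 23391 shared genes. The submitters' processing notes name mm10, TopHat2 2.0.10, Bowtie2, HTSeq, DESeq and edgeR. Neither the annotation used for counting nor any parameter is given in those notes. Per the labels' protocols the libraries were polyadenylated, single-end and without strand, so reads of genes that overlap on opposite strands cannot be told apart. Reads counted as ambiguous stood in a row of their own and were credited to no gene. They made up 0.776% to 0.942% of each library.

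From the counts, CPM with TMM scaling and edgeR's quasi-likelihood test were computed (edgeR 4.0.16, limma 3.58.1, R 4.3.3). All 29 libraries entered a single model of group means (21 residual degrees of freedom), after a filter on low counts that left 13765 genes. Benjamini-Hochberg adjustment over these genes at 0.05 was made in each of 14 comparisons. Log2 fold changes are ± SE, CPM values are per library. The 5 rows of reads not assigned to a gene, the ambiguous reads among them, stayed out of library sizes. The sex label was not a term, because transcripts of the sex chromosomes go against many of these labels. It was tried as an alternative, with RLE scaling, no filter, a Y-linked score, only libraries labelled male, the replicate block, only the groups compared, DESeq2 1.42.0, the 45S precursor Rn45s left out, each library left out, both libraries that stand apart left out, and offsets that remove each library's trend with transcript length and GC content. Summed levels without either of those 2 libraries alone were added after seeing the data. The scripts were tested on simulated data.

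Named were all isoform pairs, examples of the core subunits of complex I and those of complex II, up to 3 members per complex with the smallest p for the average TAC effect and up to 2 with the smallest adjusted p in other comparisons, members that moved against most of their complex, and regulators. Ndufa7, Ndufb7, Ndufa11 and Cox7a2l were named to complete counts, after their values were seen. Of the members counted, 1 is not reported here by name or in the plot of single members. The members and lists were chosen with earlier results of these data known. Gene positions and lengths are from GENCODE vM21 (GRCm38), promoters from RefSeq (GRCm38.p6). Python 3.11.15 and matplotlib 3.10.9 drew the figures.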

Additional observations from a re-analysis of the deposited data

Results flagged for a closer look

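In complex III, combined unstressed replicate 3 had a summed level of 4121.5 CPM, far from the other 3 libraries of its group at 3874 to 3888 CPM. In complex IV, wild-type TAC replicate 2 had 9332.3 CPM against 7219 to 7565 CPM in the other 3. The 5 groups of 4 libraries were tested for a library apart from its group, for each complex sum and for the sum of all members. Of these 30 tests, which share libraries, chance flags about 1 in 20.

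The difference of the TAC change from that of wild type passed the test in these members (edgeR's quasi-likelihood test, log2 scale, combined minus wild type). In complex I it was 0.63 for Ndufb2 (adjusted p = 0.00021), 0.60 for Ndufv2 (0.0033), 0.46 for Ndufb5 (0.0038), 0.45 for Ndufa9 (0.001), 0.45 for Ndufb11 (0.0013) and 0.38 for Ndufs3 (0.0016). In complexes II and III it was 0.28 for Sdhc (0.039), 1.68 for Uqcrb (0.005), 1.055 for Uqcrc2 (1.1e-05) and 0.24 for Uqcrfs1 (0.041). In complexes IV and V it was 0.49 for Cox6b1 (0.00015), 0.56 for Cox7b (0.007), 0.32 for Cox7a2l (0.037) and 0.42 for Atp5h (0.0044). For PKCδ minus wild type it was 0.54 for Ndufc2 (0.045).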

How the results depend on the processing

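Replicate numbers did not pair the samples: correlations of same-numbered deviations ran from -0.108 to 0.181. With the replicate block the 14 comparisons gave 34, 30, 37, 41, 55, 7, 1, 28, 0, 0, 1, 0, 0 and 14 member calls, against 32, 30, 36, 42, 56, 8, 1, 28, 0, 0, 1, 1, 0 and 14 without it, so the PKCδ interaction alone moved by over 1.5 times. With only libraries labelled male, TAC called 19 members in PKCδ and 15 in combined hearts, the combined interaction 3, and PKCε against wild type after TAC 1. This leaves 1 library in each of the PKCδ and combined TAC groups, assumed to vary like the others. Unstressed PKCδ gave 5 with the Y-linked score. Unstressed PKCε gave 2 with no filter, the Y-linked score, DESeq2, both libraries that stand apart left out, or the length and GC offsets. Combined against wild type after TAC gave 0 with the sex label, male labels only, only the groups compared, both libraries left out, or the offsets, and 3 with the Y-linked score or DESeq2. The PKCδ interaction gave 0 with the sex label, the Y-linked score or male labels only, and 2 with DESeq2. The combined interaction gave 22 with the offsets, 20 more positive and 2 more negative. Cox6a1 to Cox6a2 was 0.19 with male labels only (exact permutation, adjusted p = 0.16).

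With the length and GC offsets the sign turned for Atp5d (TAC in wild type -0.13, PKCε -0.12, average -0.046), Cox6a1 (PKCδ -0.032), Cox4i1 (PKCε -0.069), Cox7c (combined -0.021), Uqcr11 (average -0.053) and Esrrg (wild type 0.0087). With male labels only it turned for Uqcrfs1 (TAC in combined -0.024). The cause was not tested.

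Leaving out 1 library at a time gave, for TAC, 29 to 37 calls (wild type), 24 to 33 (PKCδ), 20 to 33 (PKCε), 36 to 40 (combined) and 54 to 57 (average). It gave 1 to 13, 0 to 3 and 17 to 28 for PKCδ, PKCε and combined unstressed, 0, 0 and 0 to 3 after TAC, and 0 to 3, 0 and 11 to 21 for the interactions. The log2 TAC difference of Cox6a1 to Cox6a2 was 0.151 to 0.217 and that of Cox8a to Cox8b 0.126 to 0.186 in the same runs.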
